A study of Mus musculus with 4 samples.

Results

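The glycolytic enzymes from glucose-6-phosphate isomerase (Gpi1) to pyruvate kinase (Pkm) were followed in gastrocnemius, the large calf muscle, of mice with muscle-specific overexpression of the nuclear receptor PPARα (MCK-PPARa) and of their non-transgenic littermates (NTG). The rule named 10 genes and took every probe set (a group of short probes that reads 1 transcript) annotated with 1 of them as its only symbol. It found 18 of the 22690 probe sets, for 9 of the 10 genes; Gpi1 had no probe set with a single symbol and was not analysed here. Of the 9 genes, 8 passed the filter on dim probe sets and entered the test by gene. Pfkp did not, and its 2 probe sets were read in a test of all probe sets with 1 symbol.

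There were 4 arrays of total RNA, 2 for MCK-PPARa and 2 for NTG, from 2 mice a genotype by the design text. Neither age, sex nor strain is given in the sources used here, and no treatment is named. The labels call the transgene muscle-specific; MCK is the usual short form for the muscle creatine kinase promoter, and the labels do not spell it out. The labels do not say which mouse each array came from, so the p-values measure the spread between arrays, part of which may be technical. That spread is mainly one pooled over genes, because each gene has few arrays of its own. The comparison asks which transcripts of muscle differ between the genotypes.

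In glycolysis, glucose 6-phosphate is turned into fructose 6-phosphate by Gpi1, committed to breakdown by phosphofructokinase, split by aldolase, and carried through triosephosphate isomerase, glyceraldehyde-3-phosphate dehydrogenase, phosphoglycerate kinase, phosphoglycerate mutase and enolase to pyruvate kinase. Fast muscle depends on this pathway for short bursts of work and uses its own isoforms for several steps. Pfkm, Aldoa, Pgam2, Eno3 and Pkm were taken as the muscle isoforms, Tpi1 and Pgk1 as steps with a single widely used gene, and Pfkl and Pfkp as the liver and platelet isoforms of phosphofructokinase. PPARα is known for switching on genes of fatty acid use.

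Values are signals of the MAS5 algorithm as deposited, scaled so that each array had a trimmed mean signal of 1500.6 or 1500.7. Differences are of log2(signal + 64.2), MCK-PPARa minus NTG, from limma, with standard errors (SE) and 95% intervals for n = 2 arrays a group. The targeted gene Ppara had signals of 7969 and 15226 in MCK-PPARa replicates 1 and 2, against 633 and 2674 in NTG replicates 1 and 2. Both MCK-PPARa arrays lay above both NTG arrays, 8.02-fold on average, and the difference did not pass the test over all genes (limma adjusted p = 0.21; 0.0012 with the replicate number as a block). With or without the block, p-values rest mainly on the spread pooled over genes, and the block leaves very few residual degrees of freedom. The defining genes of fast skeletal muscle, such as Ckm and Myh4, were bright on all arrays, with a median log2 difference of 0.12 over the 12 listed. Some controls separated by replicate number: the 18S ribosomal RNA control at the 5′ end read 2313 and 44.7 in MCK-PPARa replicates 1 and 2, against 2202 and 28.9 in NTG. Others did not, as the 3′ actin control with 69082 and 67652 in MCK-PPARa and 65290 and 71990 in NTG.

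Genes of glycolysis are textbook targets of the hypoxia-inducible factors, and Pgk1 and the muscle isoform Pgam2 differ in how their start regions read. Each sequence is the strand of the gene from 250 bases before to 50 after its start, from RefSeq (GRCm38.p6). For Pgk1 (chrX:106186850-106187149, plus strand), the member with the largest difference below, capitals mark the core of the hypoxia response element (ACGTG, either strand). For Pgam2 (chr11:5803747-5804046, minus strand), a muscle isoform with a log2 difference of 0.11, capitals mark E-boxes (CANNTG), the motif class bound by the myogenic factors.
Pgk1: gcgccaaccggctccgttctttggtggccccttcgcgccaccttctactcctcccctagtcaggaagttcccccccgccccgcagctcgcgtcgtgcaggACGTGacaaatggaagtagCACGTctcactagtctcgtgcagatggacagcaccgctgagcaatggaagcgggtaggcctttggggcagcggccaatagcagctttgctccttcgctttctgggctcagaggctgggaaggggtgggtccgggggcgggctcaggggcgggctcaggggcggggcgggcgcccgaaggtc
Pgam2: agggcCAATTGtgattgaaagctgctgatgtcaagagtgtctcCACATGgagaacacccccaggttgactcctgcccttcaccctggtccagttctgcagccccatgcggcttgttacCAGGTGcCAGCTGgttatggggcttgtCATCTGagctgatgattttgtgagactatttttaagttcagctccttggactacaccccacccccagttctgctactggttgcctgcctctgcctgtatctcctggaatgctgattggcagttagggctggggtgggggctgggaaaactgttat

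The Pgk1 window held 2 hypoxia cores, 5 GC boxes (GGGCGG, either strand) and 2 E-boxes, while the Pgam2 window held 0 hypoxia cores, 0 GC boxes and 5 E-boxes. All 10 genes had windows in the RefSeq table, 16 in all because some have several starts. A hypoxia core was present in 6 of the 16 windows (Pfkm, Aldoa, Pgk1 and Pkm), against 19.6% of all 32851 windows of the same length. Pfkm held up to 3 cores in a window (log2 difference of the gene -0.14), Pkm up to 2 (-0.45) and Aldoa up to 1 (0.09). A relation between motifs and differences was not tested. A GC box was present in 8 of 16, against 35.7% of all, and an E-box in 13 of 16, against 72.3% of all. Some windows of a gene overlap, as for Aldoa, so 1 stretch can count more than once. By gene, a hypoxia core was present in 4, a GC box in 7 and an E-box in 9 of the 10. Shares by gene were not computed over all genes, and the shares by window are not their like, because several windows give a gene more places for a match. Hypoxia cores and E-boxes can overlap, and did for 2 cores in a Pfkm window. The strict form of the PPAR element, a direct repeat of AGGTCA with 1 base between the copies, either strand, was in 0 of 16 windows and in 0.0396% of all. These are matches of letters in a short window and say nothing about binding.

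Across the pathway no member gene passed the test over all genes tested. The 8 tested genes had log2 differences between -0.61 (Pgk1) and 0.28 (Pfkl), with 4 above and 4 below 0, where 55.5% of all genes were above. Their median was -0.05, against 0.05 for all 8400 genes. None had a limma adjusted p under 0.05, where 0.0595% of all genes did, and none had an unadjusted p under 0.05, where 5.85% did. The groups did not overlap for 2 of the 8 genes, against 34.2% of all genes: Pfkl was higher in MCK-PPARa, as were 20.3% of all, and Pgk1 lower, as were 13.8%. Of the 18 probe sets 7 had differences above 0, where 56.9% of all did. The groups did not overlap on 7 of the 18, against 33.8% of all, with 2 higher (20.8% of all) and 5 lower (13.0% of all) in MCK-PPARa. For the 5 muscle isoforms the median was 0.05, and for the other 3 tested members -0.18, which is the value of Tpi1. Those 3 mix the single-gene steps Tpi1 and Pgk1 (-0.61) with Pfkl (0.28), the only isoform of another tissue that was tested. The muscle median was below 0 under quantile normalization (-0.15), median centring (-0.054) and the mean of probe sets (-0.14), and ran from -0.22 to 0.22 with single arrays left out.

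**Figure D1:**
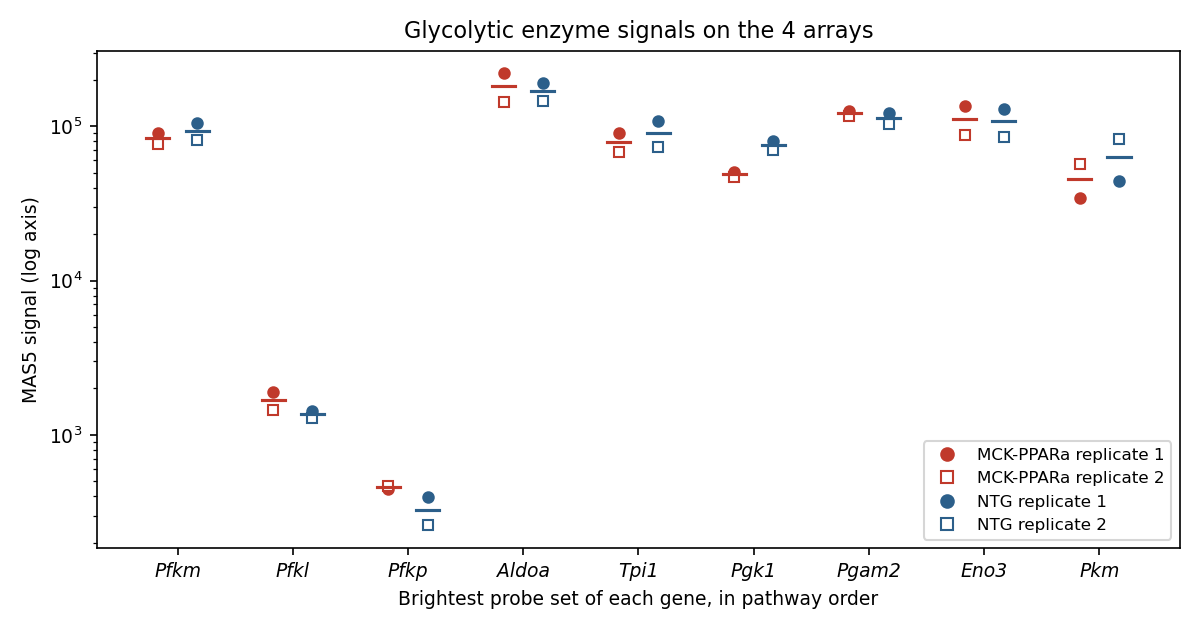
MAS5 signal (log axis) of the brightest probe set of each of the 9 measured enzymes on the 4 arrays, in pathway order. Points are arrays and bars are group means, MCK-PPARa left of NTG. Pgk1 is lower on both MCK-PPARa arrays, and Pkm is the enzyme whose replicate 1 arrays lie below its replicate 2 arrays in both genotypes.

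Phosphofructokinase, the committing and most regulated step, was read by 3 genes. The muscle isoform Pfkm had signals of 90336 and 77118 in MCK-PPARa and 105007 and 81044 in NTG replicates 1 and 2. The groups overlapped, and the log2 difference was -0.14 ± 0.33 (SE; limma adjusted p = 0.99), with a 95% interval from 0.53-fold to 1.55-fold of NTG. Its single probe set stood at percentile 99.9 of all probe sets by mean log2 signal, a rank that reflects probe affinity as well as transcript level. Without NTG replicate 1 the difference was 0.042.

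The liver isoform Pfkl had signals of 1891 and 1458 in MCK-PPARa and 1427 and 1296 in NTG on its brighter probe set. Both MCK-PPARa arrays were above both NTG arrays, by a log2 difference of 0.28 ± 0.32 (SE; limma adjusted p = 0.97). It was 0.096 without MCK-PPARa replicate 1 and 0.56 with the mean of probe sets. A second Pfkl probe set read 840 and 2088 in MCK-PPARa and 534 and 949 in NTG, where replicate 1 of MCK-PPARa lay below replicate 2 of NTG. Its log2 difference was 0.84 ± 0.51 (SE; limma adjusted p = 0.98 over all probe sets).

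Pfkp, the platelet isoform, was dim. The brighter of its 2 probe sets read 449 and 465 in MCK-PPARa and 396 and 260 in NTG, with a log2 difference of 0.43 ± 0.52 (SE; limma adjusted p = 0.98). The dimmer read 83.6 and 304 in MCK-PPARa and 276 and 92.9 in NTG, and changed direction between the replicate numbers. Without detection calls it cannot be said whether Pfkp was above background.

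The isoforms were also set against each other on the same arrays. The log2 signal of Pfkm minus the mean of those of Pfkl and Pfkp, centred on its mean over the arrays, was -0.21 and -0.28 in MCK-PPARa and 0.28 and 0.22 in NTG. The difference was -0.50, with an SD of 0.05 in MCK-PPARa and 0.04 in NTG (n = 2 each). An exact two-sided permutation test gave p = 0.333, the smallest that 2 arrays against 2 can give. The value rests in part on the dim Pfkp, no phosphofructokinase gene passed its own test, and the difference was -0.40 with an offset of 50% of the median before log2.

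Aldoa, the muscle and red cell aldolase that splits fructose 1,6-bisphosphate, was read by 4 bright probe sets that did not agree in sign. The brightest read 219889 and 142474 in MCK-PPARa and 190025 and 145815 in NTG, a log2 difference of 0.09 ± 0.38 (SE; limma adjusted p = 0.99). The other 3 gave -0.08, -0.17 and -0.41. On the last of these both MCK-PPARa arrays (114908 and 85909) lay below both NTG arrays (122470 and 142727), and on the first 3 the groups overlapped. All 4 carry the Affymetrix suffix _x_at, given to probe sets with probes that can also match other transcripts. The sign of the gene's value was below 0 under quantile normalization, median centring and the mean of probe sets.

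**Figure D2:**
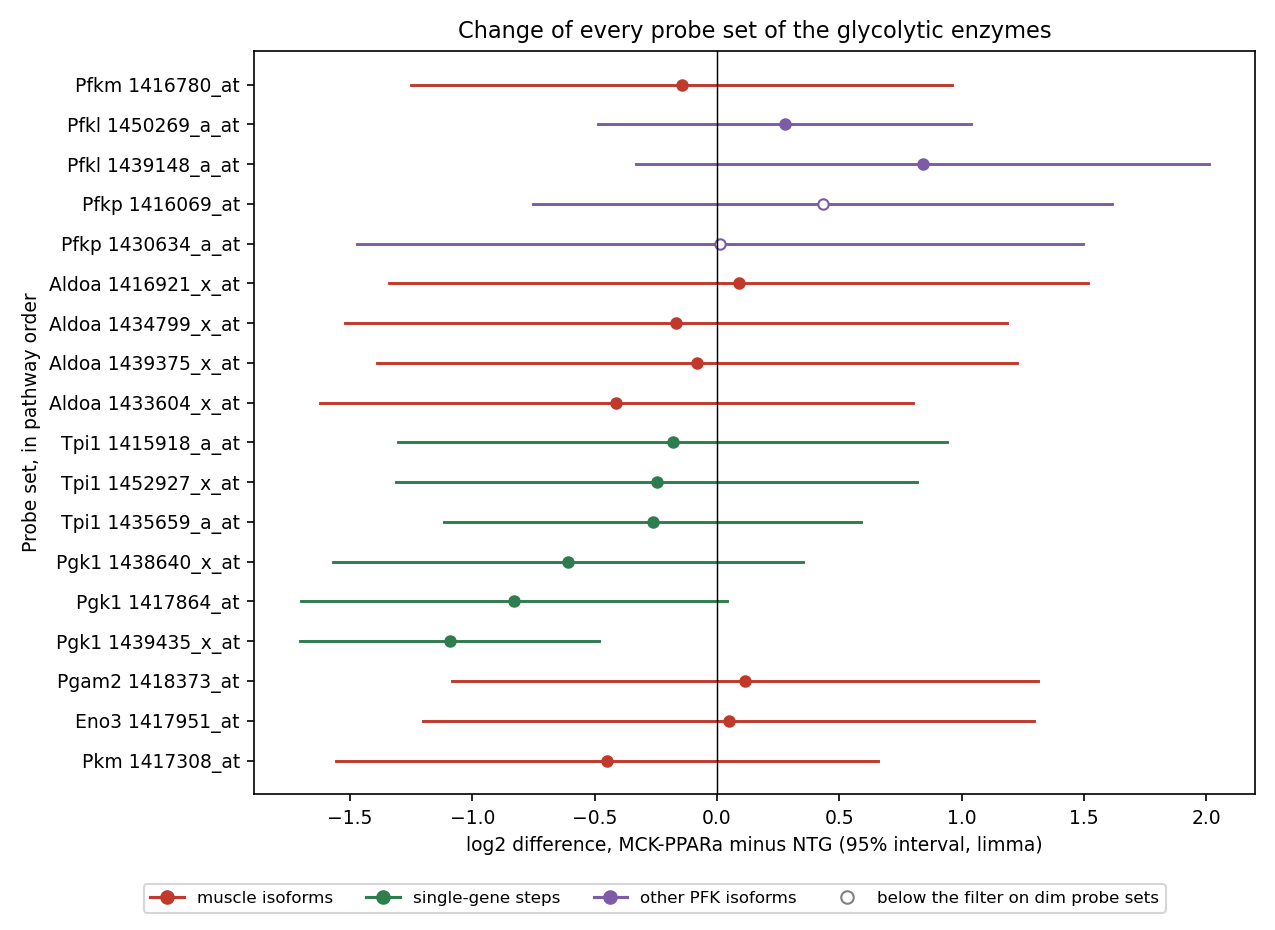
Log2 difference, MCK-PPARa minus NTG, with 95% intervals from limma over all 20380 probe sets with 1 symbol, for the 18 probe sets in pathway order. Open circles are the 2 Pfkp probe sets below the filter on dim signals. The interval of the dimmest Pgk1 probe set, from -1.71 to -0.48, is the only 1 of the 18 that leaves out 0.

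Tpi1, which interconverts the triose phosphates, was lower on average on all 3 of its probe sets, none past the test. The brightest read 89786 and 67830 in MCK-PPARa and 107312 and 73038 in NTG (log2 difference -0.18 ± 0.36 SE; limma adjusted p = 0.98). The others gave -0.25 and -0.26, and the last had groups that did not overlap, at 39593 and 31348 in MCK-PPARa against 44092 and 40549 in NTG. Without NTG replicate 1 the difference of the brightest probe set was 0.10, and without MCK-PPARa replicate 2 it was 0.02.

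Glyceraldehyde-3-phosphate dehydrogenase (Gapdh), the step between Tpi1 and Pgk1, was not among the genes the rule named, and its ordinary probe sets carry several symbols. The array's control probe sets along its transcript read 139001 and 118105 (3′), 177759 and 111347 (middle) and 157911 and 164584 (5′) in MCK-PPARa. In NTG they read 127693 and 106963, 162728 and 108579, and 132369 and 122356 in the same order. The log2 differences were 0.13, 0.08 and 0.34, and the groups were apart on the 5′ control alone. These were not tested.

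Pgk1, the X-linked phosphoglycerate kinase that makes the first ATP of the pathway, had the largest difference among the members. Its brightest probe set read 50843 and 47165 in MCK-PPARa and 80050 and 69901 in NTG. The second read 35025 and 31144 in MCK-PPARa and 61297 and 56224 in NTG. The third and dimmest read 3725 and 3635 in MCK-PPARa and 8261 and 7597 in NTG.

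On each of the 3 Pgk1 probe sets both MCK-PPARa arrays lay below both NTG arrays. The 3 share 1 transcript and 1 set of arrays, so they are not separate evidence. The log2 differences over all probe sets were -0.61 ± 0.42, -0.83 ± 0.38 and -1.09 ± 0.27 (SE), or 1.53-fold, 1.78-fold and 2.13-fold lower. The limma adjusted p was 0.98, 0.92 and 0.42 over the 20380 probe sets, of which 0.0196% passed. The dimmest had an unadjusted p of 0.0031, the only member probe set under 0.05, where 5.53% of all were. It also passed with the replicate number as a block (limma adjusted p = 0.022), as 1.16% of all did.

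In the test by gene, which takes the brightest probe set and estimates the spread without the dim ones, Pgk1 did not pass (-0.61 ± 0.31 SE, limma adjusted p = 0.92; adjusted p = 0.18 with the replicate number as a block). Between the replicate 1 arrays the 3 probe sets differed by -0.65, -0.81 and -1.14, and between the replicate 2 arrays by -0.57, -0.85 and -1.05. The size thus varied with the probe set more than with the replicate number. The second probe set carries the plain suffix _at, while the others are _x_at.

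**Figure D3:**
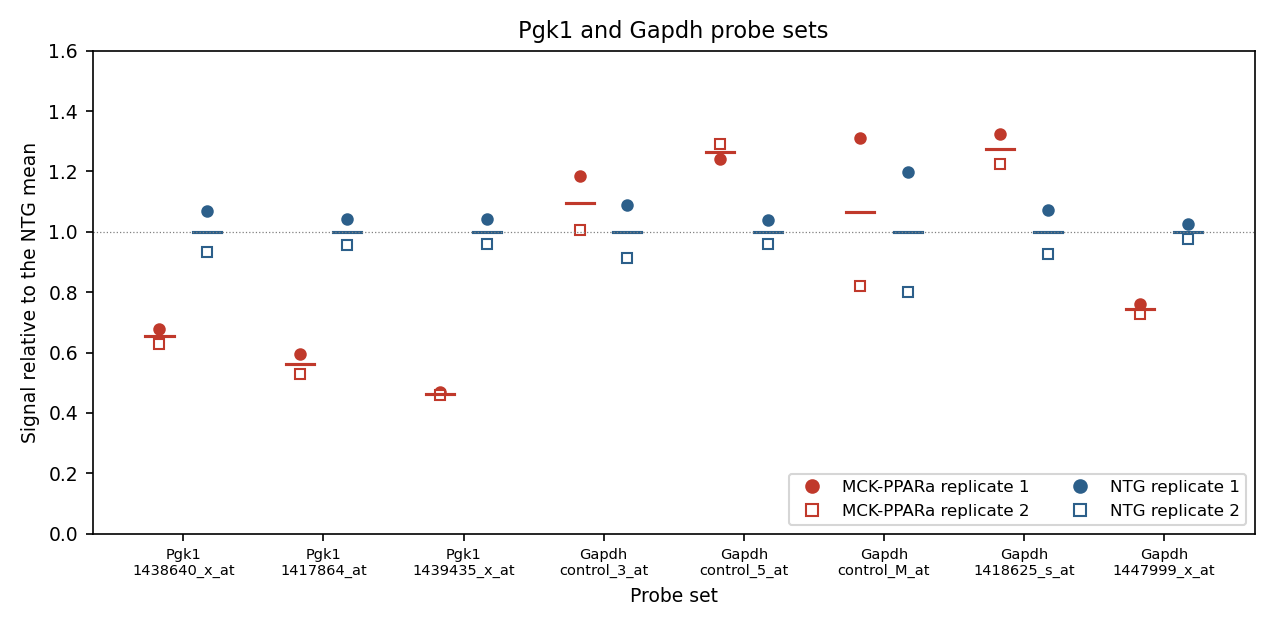
Signal of the 3 Pgk1 probe sets, the 3 Gapdh controls and the 2 Gapdh probe sets that carry several symbols, each divided by its own NTG mean. Points are arrays and bars are group means, MCK-PPARa left of NTG; both MCK-PPARa points lie below both NTG points on every Pgk1 probe set, and the Gapdh probe sets go both ways.

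The lower steps of the pathway have muscle isoforms of their own. Pgam2, the muscle phosphoglycerate mutase, read 125890 and 116761 in MCK-PPARa and 120827 and 103787 in NTG, so the groups overlapped. Its log2 difference was 0.11 ± 0.33 (SE; limma adjusted p = 0.99), with an interval from 0.64-fold to 1.83-fold of NTG. With other settings or single arrays left out it lay between 0.0049 and 0.22. Eno3, the muscle enolase, read 134887 and 87412 in MCK-PPARa and 128848 and 85647 in NTG. Here the difference of 0.05 ± 0.39 (SE; limma adjusted p = 1.00) was small beside that between replicate numbers, and it was below 0 under quantile normalization and median centring.

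Pkm, the pyruvate kinase that makes the last ATP of the pathway, read 34475 and 56722 in MCK-PPARa and 44005 and 82818 in NTG. The groups overlapped, because replicate 2 of MCK-PPARa was above replicate 1 of NTG, although MCK-PPARa was the lower of each same-numbered pair. Its log2 difference was -0.45 ± 0.42 (SE; limma adjusted p = 0.97), or 1.36-fold lower, and 0.01 without NTG replicate 2. Pkm makes 2 spliced forms, M1 of muscle and M2 of growing cells, and the single probe set is not annotated to either.

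For most of these enzymes, as for most of all genes tested, the arrays differed more by replicate number than by genotype. The replicate 1 minus replicate 2 difference was the larger of the 2 in size for 6 of the 8 tested genes, against 56.9% of all genes, and the exceptions were Pfkl and Pgk1. By probe set it was so for 11 of 18, against 55.4% of all. Eno3 (0.61), Aldoa (0.50), Tpi1 (0.48) and Pfkm (0.30) were higher on the replicate 1 arrays. Pkm went the other way, at -0.81. For Pgk1 this difference was 0.15, smaller than its genotype difference of -0.61. The median over the 8 genes was 0.27, beside 0.26 for the 200 brightest genes and -0.07 for all genes tested.

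**Figure D4:**
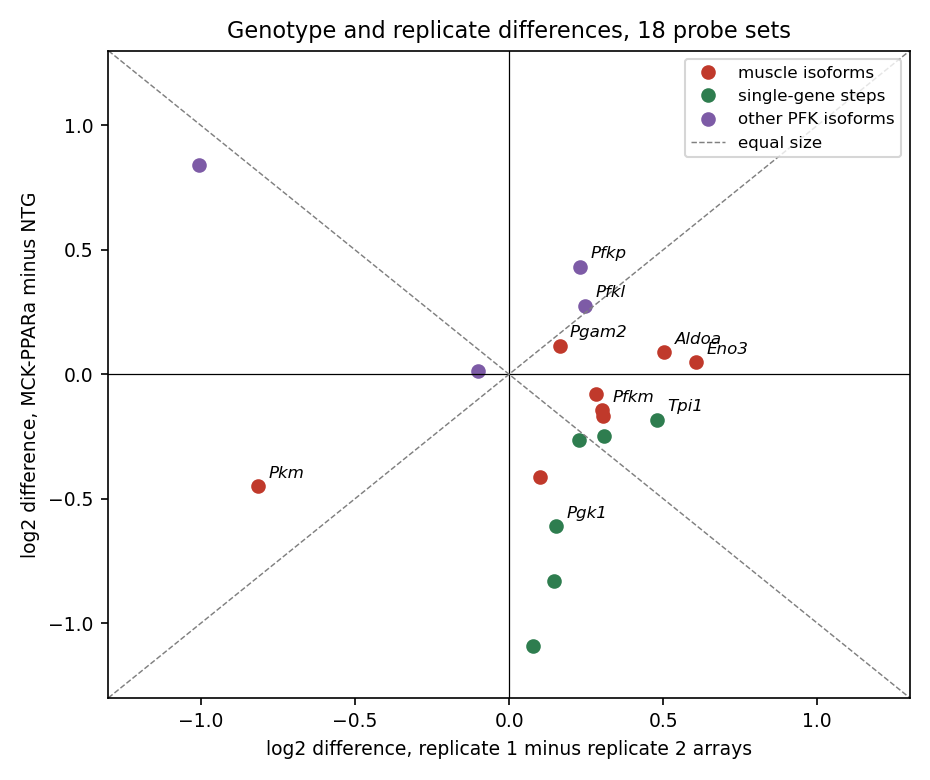
Genotype difference (MCK-PPARa minus NTG) against replicate difference (replicate 1 minus replicate 2 arrays), both on the log2 scale, for the 18 probe sets; labels mark the brightest of each gene. Points left and right of the crossed dashed lines differ more by replicate number, as Eno3, Aldoa and Pkm do, and the 3 Pgk1 points lie near the vertical axis.

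Genes whose 4 values lay nearest to the mean profile of the muscle isoforms were Adss, Ahnak, Mkln1, Pcnp and Cdc123. Likeness was the Euclidean distance between centred log2 values over the 4 arrays, and it was 0.03 to 0.06. These 5 had log2 differences from -0.11 to -0.03, none past the test. The mean profile was nearly flat, at 0.053 and -0.12 in MCK-PPARa and 0.099 and -0.031 in NTG replicates 1 and 2. By replicate number the 5 genes differed by 0.12 to 0.16. The isoforms themselves differed by 0.61 (Eno3), 0.50 (Aldoa), 0.30 (Pfkm), 0.16 (Pgam2) and -0.81 (Pkm), so the 5 do not resemble most of them singly.

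Around the pathway, the transporters Slc16a3 and Slc2a4 and the shuttle enzyme Gpd2 had lower signals in MCK-PPARa, and Epas1 and the brightest of 4 Mdh1 probe sets higher ones, none past the test. Of 47 other listed genes 36 had a probe set with 1 symbol and 31 were tested. None passed over all genes, 2 had an unadjusted p under 0.05 in the higher direction (3.33% of all genes did) and 3 in the lower (2.51% did), or 16.1% together. The median of the 31 was -0.04. The groups did not overlap for 11 of the 31, or 35.5%, which is near the 34.2% of all genes. With the replicate number as a block 4 passed (limma), or 12.9% against 2.33% of all genes. The list was written with earlier results of these data known, so these shares cannot show enrichment around the pathway.

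Slc16a3, the lactate exporter MCT4 of fast fibres, read 5631 and 6678 in MCK-PPARa and 19142 and 19476 in NTG. It was 3.13-fold lower (-1.64 ± 0.29 SE; limma adjusted p = 0.14, and 0.0032 with the block). Slc2a4, the insulin-responsive glucose transporter, read 7162 and 8919 in MCK-PPARa and 17360 and 17615 in NTG (-1.12 ± 0.29 SE; limma adjusted p = 0.37, and 0.020 with the block). On these probe sets the highest MCK-PPARa array lay well below the lowest NTG array. The second Slc2a4 probe set read 5689 and 10455 in MCK-PPARa and 11004 and 19092 in NTG, so its groups nearly touched (-0.90 ± 0.40 SE; limma adjusted p = 0.90 over all probe sets).

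Among enzymes of the shuttles that carry the electrons of Gapdh into mitochondria, Gpd2, Gpd1 and Got1 had lower signals in MCK-PPARa. Mdh1 gave values in both directions. Gpd1 gave -0.28 ± 0.30 (SE; limma adjusted p = 0.97) with groups that did not overlap. Got1 gave -0.47 ± 0.38 (SE; limma adjusted p = 0.96) with overlapping groups. Gpd2, the mitochondrial glycerol-3-phosphate dehydrogenase, read 2125 and 4669 in MCK-PPARa and 5420 and 12634 in NTG (-1.37 ± 0.50 SE; limma adjusted p = 0.70, and 0.0085 with the block). Without NTG replicate 2 it was -0.77 and without MCK-PPARa replicate 1 -0.82. Mdh1, the cytosolic malate dehydrogenase of the other shuttle, read 30935 and 27609 in MCK-PPARa and 17695 and 18790 in NTG (0.68 ± 0.29 SE; limma adjusted p = 0.85). Its other 3 probe sets gave 0.50, -0.25 and -0.02, so the direction of Mdh1 depended on the probe set, and the mean over its probe sets past the filter gave 0.14. Epas1, a hypoxia-inducible factor subunit abundant in endothelium, read 1388 and 2989 in MCK-PPARa and 566 and 1184 in NTG (1.25 ± 0.48 SE; limma adjusted p = 0.74, and 0.035 with the block). Without MCK-PPARa replicate 2 it was 0.71 and without NTG replicate 1 0.76. Hif1a, the subunit best known for driving glycolytic genes, gave -0.52 ± 0.42 (SE; limma adjusted p = 0.96) on its brightest probe set. Of its other 3 probe sets, 2 gave -0.79 and -0.41 and 1 gave 0.31, with both MCK-PPARa arrays above both NTG arrays.

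Of 11 other genes listed for the members' steps and the neighbouring Gapdh step, 5 were tested and none passed. Those 5 were the brain-type mutase Pgam1 (-0.14), the brain aldolase Aldoc (0.34), the liver and red cell pyruvate kinase Pklr (0.02), the sperm enzyme Gapdhs (0.15) and Bpgm (-0.38), which makes 2,3-bisphosphoglycerate. Ldha, the lactate dehydrogenase subunit of fast muscle, read 144006 and 164921 in MCK-PPARa and 130254 and 95790 in NTG (0.46 ± 0.35 SE; limma adjusted p = 0.96), with groups that did not overlap. The entry enzyme hexokinase Hk2 gave -0.50 ± 0.42 (SE; limma adjusted p = 0.96) with overlapping groups.

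**Figure D5:**
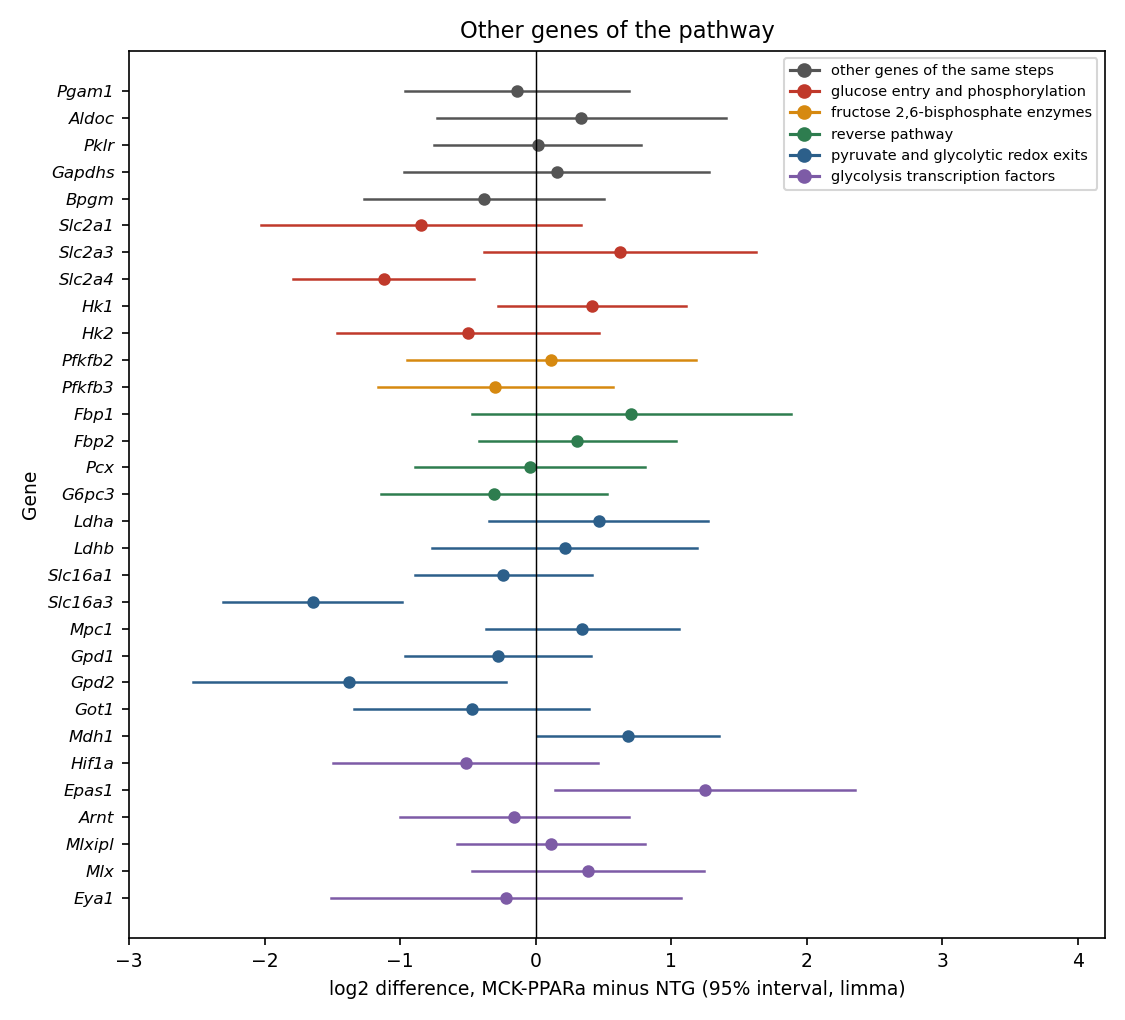
Log2 difference, MCK-PPARa minus NTG, with 95% intervals from limma for the 31 other pathway genes tested, grouped by list. Slc16a3, Slc2a4 and Gpd2 lie below 0 and Mdh1 and Epas1 above it with intervals that leave out 0, none past the adjusted threshold.

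Markers of fibre type and of other cells were read on the same arrays, and none passed over all genes. Their lists were also written with earlier results of these data known, so shares of called markers cannot show enrichment. The summed signal of the 10 slow-fibre genes was 98336 and 75925 in MCK-PPARa and 159207 and 101167 in NTG, lower in MCK-PPARa on all arrays. The slow myosin Myh7 and the troponins Tnni1, Tnnt1 and Tnnc1 were lower with an unadjusted p under 0.05, or 4 of the 10 where 2.51% of all genes were (limma adjusted p between 0.15 and 0.50). With the block Myh7 (0.00063), Tnni1 (0.018) and Tnnc1 (0.0028) passed, and Tnnt1 did not (0.054). Of the 10 slow-fibre genes 8 were below 0 and 2 above, Casq2 at 0.57 and Tpm3 at 0.13. Of the 8 adipocyte markers 4 were tested, and their summed signal was 28865 and 17793 in MCK-PPARa and 7833 and 7517 in NTG, with all 4 log2 differences above 0. Fabp4 (1.93), Adipoq (1.34) and Retn (0.81) were higher with an unadjusted p under 0.05, where 3.33% of all genes were (limma adjusted p between 0.19 and 0.74). With the block Fabp4 (0.0043) and Adipoq (0.023) passed, and Retn did not (0.14). No tested marker of either list was at 0. Among markers of other cells, the tendon gene Thbs4 read 4635 and 4325 in MCK-PPARa and 10238 and 10466 in NTG (-1.20; limma adjusted p = 0.29, and 0.016 with the block). Of the 8 tendon and cartilage genes 5 were below 0 and 3 above. Their summed signal overlapped between the groups, at 35587 and 25534 in MCK-PPARa and 34489 and 32169 in NTG. The endothelial receptor Kdr read 2836 and 4263 in MCK-PPARa and 1850 and 1794 in NTG (0.91; limma adjusted p = 0.68), and the 7 endothelial genes summed to 15251 and 16572 in MCK-PPARa and 11077 and 13252 in NTG. The fibroblast receptor Pdgfra read 803 and 762 in MCK-PPARa and 1146 and 2011 in NTG (-0.90; limma adjusted p = 0.81). Most of its list went the other way, with 5 of the 7 fibroblast and matrix genes above 0 and 2 below. Those 7 summed to 259694 and 234038 in MCK-PPARa and 231171 and 195667 in NTG. The summed signal of the 12 fast-muscle genes was 2061351 and 1736523 in MCK-PPARa and 1843239 and 1649446 in NTG. The part of these markers in the values of Pgk1, the other enzymes and Epas1 was not tested. In whole muscle, fewer cells of a type and less RNA per cell cannot be told apart.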

How the data were processed

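Total RNA of gastrocnemius was hybridised to 4 one-colour Affymetrix mouse arrays. The authors deposited linear signal intensities, made with MAS5 per the submitters' processing notes; a version and settings were not stated there, and detection calls were not used here. The 2% trimmed means were equal across arrays, so no further normalization was applied. Probe sets were named from GEO's platform annotation: 20380 had 1 symbol, 691 several, 1555 none, and 64 were controls. No symbol differed from the RefSeq gene table (GRCm38.p6) by Entrez ID.

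Signals were taken as log2(signal + 64.2), the offset being 10% of the median of all values. Probe sets with a mean log2 value below the 40th percentile of non-control probe sets were left out and the brightest stood for its gene, which left 8400 genes. A second fit took all 20380 probe sets. Both used limma 3.58.1 (R 4.3.3; lmFit, eBayes with a variance trend, 7.86 total degrees of freedom in the fit by gene), two-sided tests, p-values adjusted by Benjamini-Hochberg and called under 0.05. The fit was tested on simulated data with independent normal spread and no difference between replicate numbers. The arrays here shared deviations by replicate number, so that test does not cover this feature of the data. With 2 arrays a group their number limits the precision. Of the 7.86 total degrees of freedom, 2 came from a gene's own arrays and the rest from the spread pooled over genes.

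Named genes were all members, other pathway genes with an unadjusted p under 0.05 or of a member's own step, up to 3 marker genes a list by smallest p, and the 5 nearest profiles. Tnnc1, Myh4, Casq2 and Tpm3 were added after their values were seen, as were Ldha, Hk2, Hif1a, Gpd1 and Got1. Members and lists were chosen with earlier results of these data known. Median log2 differences of the other marker lists were 0.18 (endothelial), 0.27 (fibroblast and matrix), 0.31 (macrophage and immune), 0.05 (nerve and Schwann), 0.26 (red blood cell), -0.23 (tendon and cartilage) and 0.08 (smooth muscle and pericyte), with -0.54 for slow fibre and 1.08 for adipocyte. For the other pathway lists they were 0.02 (other genes of the same steps), -0.50 (glucose entry), -0.09 (fructose 2,6-bisphosphate enzymes), 0.13 (reverse pathway), -0.24 (pyruvate and redox exits) and -0.02 (transcription factors). Alternatives changed the offset, normalization, filter, probe set rule, variance prior, replicate block and the arrays used.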

Additional observations from a re-analysis of the deposited data

Results flagged for a closer look

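Gapdh signal lay outside the single-symbol probe sets of the comparison, on control and shared probe sets, and on 2 of these both MCK-PPARa arrays were above both NTG arrays. The 3′ and middle controls had differences of 0.13 and 0.08 with overlapping groups. The 5′ control (157911 and 164584 in MCK-PPARa, 132369 and 122356 in NTG) had a log2 difference of 0.34, and a probe set shared by Gapdh, pseudogenes and other loci (224101 and 207635 in MCK-PPARa, 181660 and 157239 in NTG) had 0.35. A dimmer probe set shared by Gapdh and a pseudogene went the other way, at 5841 and 5597 in MCK-PPARa and 7869 and 7497 in NTG (-0.42). None of these was tested.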

How the results depend on the processing

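No member gene passed limma's test under any of the 13 alternatives, and the lowest adjusted p of any member was 0.18 (Pgk1, replicate block); Pgk1 stayed between -0.84 and -0.51. The count of all genes past the threshold was 5, and became 3 with median centring, 2 with a filter at the 60th percentile, 12 with the mean of probe sets, 196 with the replicate block and 68 to 150 with single arrays left out. Of member probe sets 0 passed, and 1 with the replicate block. Replicate numbers 1 and 2 are shared by both groups without a stated meaning; deviations of same-numbered arrays correlated at 0.46 across 8400 genes, which are not independent. The block brought Slc2a4 (adjusted p = 0.020), Slc16a3 (0.0032), Gpd2 (0.0085) and Epas1 (0.035) past the threshold, with Ppara (0.0012), Myh7, Tnni1, Tnnc1, Fabp4, Adipoq, Thbs4 and 1 Pgk1 probe set, and changed no other call named here. It leaves fewer residual degrees of freedom than the main fit. Like those of the main fit, these p-values rest mainly on the spread pooled over genes and the size of the difference. They rest less on each gene's own spread. Over the member genes the SE with the block lay between 0.19 (Pgk1) and 0.24 (Pfkl). With 1 array left out, its group has a single array, which is assumed to vary like the other group. So fitted, Slc16a3 passed without MCK-PPARa replicate 2 (0.036) and without NTG replicate 1 (0.038), Gpd2 without the same arrays (0.0053 and 0.0047) and Epas1 without MCK-PPARa replicate 1 (0.013). Other omissions gave no pass: Gpd2 was -0.77 without NTG replicate 2 (1.00) and -0.82 without MCK-PPARa replicate 1 (0.53), and Epas1 0.71 without MCK-PPARa replicate 2 (1.00) and 0.76 without NTG replicate 1 (1.00). Median centring moved the median of all genes by -0.10.

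Uncalled signs changed as follows. Aldoa was -0.15 under quantile normalization, -0.0135 under median centring, -0.14 with the mean of probe sets, and -0.22 to 0.40 with arrays left out (-0.22 without MCK-PPARa replicate 1, -0.10 without NTG replicate 2). Eno3 was -0.056 under quantile normalization, -0.054 under median centring, and -0.27 to 0.36 with arrays left out (-0.25 without NTG replicate 2). Tpi1 reached 0.02 without MCK-PPARa replicate 2 and 0.10 without NTG replicate 1, Pfkm ran from -0.33 to 0.042 (without NTG replicate 1) and Pkm from -0.90 to 0.0071 (without NTG replicate 2). Pfkl kept its sign between 0.096 and 0.56, and Pgam2 between 0.0049 and 0.22. The median of the muscle isoforms was -0.15 under quantile normalization, -0.054 under median centring and -0.14 with the mean of probe sets, and ran from -0.22 to 0.22 with arrays left out, and that of the members from -0.24 to 0.16. The Pfkm contrast was -0.40 with an offset of 50% of the median, and -0.53 to -0.46 with arrays left out. The cause was not tested.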
